A study of Mus musculus with 24 samples.

Results

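Trp53inp1 encodes tumor protein p53-inducible nuclear protein 1, a stress protein that p53 induces and that in turn acts with p53 on cell cycle arrest and cell death. It also binds the LC3 and GABARAP proteins of the autophagosome and takes part in autophagy. Its messenger RNA has long been studied as a target of miR-155, a microRNA that lymphocytes make when they are activated. A microRNA guides Argonaute proteins to messenger RNAs mainly through its seed, bases 2 to 8 of the mature strand, which pairs with sites that lie mostly in the 3' untranslated region (3' UTR) and lowers the output of the target.

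All rows with the gene symbol Trp53inp1 were taken from the authors' deposited table of Argonaute 2 (AGO2) peaks, which gave 43 of its 14634 peaks, the most of any of the 4165 genes. The gene was chosen by this number of peaks, a measured value, so the number is a description and supports nothing here. AGO2 with its crosslinked RNA was immunoprecipitated and sequenced (HITS-CLIP) from C57BL/6 CD4+ T cells of spleen and lymph nodes, activated in culture for 4 days by CD3 and CD28 antibodies at 1 µg/mL, with 20 U/mL of IL-2. The groups were wild type and miR-155 knockout, with 12 libraries each, labelled as biological replicates, and both genotypes were activated in the same way. Each genotype had 6 libraries with either of 2 3' linkers, and within replicate numbers 1 to 6, as within the rest, genotype and linker cannot be told apart. The table holds a single value per genotype, pooled over its libraries, so no read number below has a replicate error.

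Reads are given as the authors' scaled reads, obtained by undoing the log2(reads + 1) form in which they were deposited. Over all peaks they came to 371088 for wild type and 374126 for the knockout, and depth per library is unknown. AGO2-bound fragments were measured and not transcript levels, and in such bulk samples fewer cells of a type and less RNA per cell cannot be told apart. Of 8 marker genes of CD4+ T cells 6 had peaks (Cd4, Cd3e, Cd3g, Cd28, Icos and Il2ra), while Cd5 and Trac had none. None of the 2 markers of CD8+ T cells, 4 of B cells, 4 of myeloid cells and 2 of NK cells had any. Since Cd5 and Trac lacked peaks too, a marker without peaks does not show that its cells were absent. As a check of the knockout, 59 of the 265 peaks with a 7-nt or 8-nt miR-155 site (22.3%) passed the threshold of differential binding, against 0.601% of all peaks.

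The sequences show which microRNAs could pair with peaks 10 and 11, which hold most of the reads, and with some smaller peaks. The mature strands of miR-101 and miR-29, whose sites lie in peaks 26 and 20, are not printed. The mature strands below, from RefSeq (GRCm38.p6), have their seed in capitals.
miR-155-5p: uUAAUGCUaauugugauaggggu
miR-26a-5p: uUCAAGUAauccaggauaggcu
miR-142a-5p: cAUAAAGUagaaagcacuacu
miR-125a-5p: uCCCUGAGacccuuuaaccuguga
miR-17-5p: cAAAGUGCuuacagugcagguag
miR-182-5p: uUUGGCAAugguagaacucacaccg
miR-221-3p: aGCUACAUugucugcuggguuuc
miR-19b-3p: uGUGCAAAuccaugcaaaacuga
miR-130a-3p: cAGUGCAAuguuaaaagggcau

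The matching stretches of Trp53inp1 follow, 5′ to 3′ on the plus strand of chromosome 4 of GRCm38, with the bases that match a seed, and the A opposite base 1 of the microRNA where there is one, in capitals.
Peak 11, miR-155, chr4:11170412-11170440: atttttacactaacacaAGCATTAAcagg
Peak 10, miR-142-5p then miR-26, chr4:11170362-11170388: tatACTTTATtgaccagTACTTGAtag
Peak 10, miR-125, chr4:11170344-11170358: tattCTCAGGGtcag
Peak 40, miR-17 then miR-182, chr4:11174221-11174241: agcacaGCACTTTGCCAAAaa
Peak 41, miR-221, chr4:11174255-11174274: aaaaacATGTAGCAttgctt
Peak 42, miR-19 then miR-130, chr4:11174318-11174333: gtgcatTTTGCACTgc
Peak 26, miR-101, chr4:11172782-11172801: tattctGTACTGTAcatagc
Peak 20, miR-29, chr4:11171235-11171254: cagggtTGGTGCTAatgagg
In peak 40 the sites of miR-17 and miR-182 share 2 nt, and in peak 42 those of miR-19 and miR-130 share 6 nt, so each pair lies on a single short run. In peak 10 the site of miR-142-5p ends 7 nt before that of miR-26, which ends 43 nt before the miR-155 site of peak 11.

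The 43 peaks lay along nearly the whole 3' UTR, and their position sets a limit on that label. In the authors' numbering, on transcript NM_001199105.1, they ran from nucleotide 45 to nucleotide 4678, and the last peak ended 8 nt before the end of the annotated exon. Every peak sequence matched the GENCODE M21 transcripts of the gene exactly, which placed all 43 in the last exon (chromosome 4, 11169710 to 11174379). The gene makes a shorter and a longer protein isoform. Nucleotide 1 of the numbering directly follows the stop codon that closes a reading frame of 163 codons in the transcript with an additional exon of 38 nt. Without that exon the frame runs for 239 codons, and positions 17 to 263 of the same numbering are then coding sequence. Peaks 1, 2 and 3 thus lie in the coding sequence of the longer isoform, peak 4 spans its stop codon, and the other 39 are in the 3' UTR of both. Peaks 1 to 4 together had 33.2 wild-type and 39.7 knockout scaled reads, a small part of the gene's reads.

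**Figure D1:**
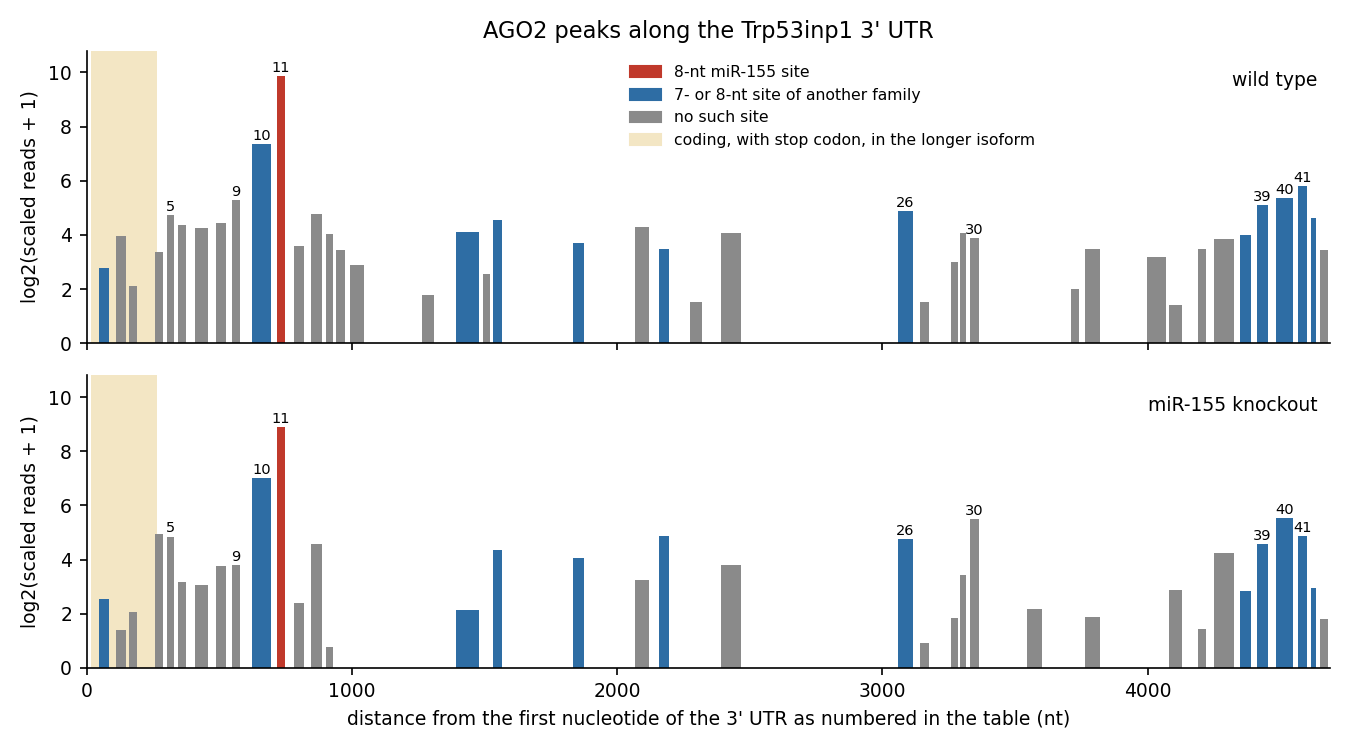
Peaks of Trp53inp1 by position in the 3' UTR (x axis, nt from its first nucleotide in the authors' numbering) and deposited log2(scaled reads + 1) (y axis) in wild type (top) and knockout (bottom); bar width is peak length, colours give site classes, and numbers mark peaks with at least 50 scaled reads. Peak 11, with the miR-155 site, is the highest bar in both genotypes, and the shaded stretch up to position 266 is coding sequence and stop codon in the longer isoform.

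A pair of neighbouring peaks held most of the AGO2 reads. Peak 11, with the miR-155 site, had 925 wild-type and 471 knockout scaled reads. Peak 10, which ends 23 nt upstream of it, had 161 and 127. Together they took 61.2% of all reads of the gene over both genotypes, and peak 11 alone took 50.7%. Peak 11 had 4.84 times the reads of peak 10 and ranked 27th of all 14634 peaks, while peak 10 ranked 319th.

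The remaining peaks were small by comparison. The next 4 by reads all lay toward the 3' end, from nucleotide 3330 on. Peak 40, with the overlapping sites of miR-17 and miR-182, had 40.5 wild-type and 45.1 knockout scaled reads. Peak 41, with the miR-221 site, had 54.8 and 28.2. Peak 30 had 13.9 and 44.02 and no 7-nt or 8-nt site of any family searched, and peak 39, with sites of miR-24 and miR-22, had 33.2 and 22.8. Of these 4, peaks 39 and 41 had more reads in wild type and peaks 30 and 40 more in the knockout.

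The next 4 by reads, which complete the 10 most-read peaks, were peaks 5, 9 and 13 in the first 1172 nt of the 3' UTR and peak 26 further downstream. Peak 26, with the miR-101 site, had 28.2 and 26.2 scaled reads in wild type and knockout. Peak 5 had 25.5 and 27.8, and peak 13 had 26.3 and 23.1. Peak 9 had 37.8 and 12.8, the widest difference of these 4. The median peak of the gene had 25.3 reads over both genotypes (quartiles 9.72 and 40.4), against 17.05 over all peaks of the table, and 12 peaks had fewer than 10.

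Peaks were densest in the first and last stretches of the 3' UTR. They covered 1805 nt, 38.5% of its 4686 nt, with a median gap of 27 nt, and 29 of 42 gaps were shorter than 50 nt. In 4 stretches of equal length, peaks 1 to 16 lay in the first, 17 to 24 in the second, 25 to 30 in the third and 31 to 43 in the last. The first stretch held 74.3% of the reads, and the others held 5.92%, 6.49% and 13.3% in order. The widest gap, 592 nt, lay between peaks 25 and 26 and held a miR-30 and a miR-221 site without a peak.

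The total of AGO2 reads on Trp53inp1 was higher in wild type, and its largest part lay at the miR-155 site. The 43 peaks summed to 1703 wild-type and 1048 knockout scaled reads, a log2 ratio of 0.70 (1.63-fold), where the sums over all peaks gave -0.01. Peak 11 made up 454 of the 655 reads of difference (69.3%). Without it the other 42 peaks summed to 779 and 578, a log2 ratio of 0.43. Peak 11 held 54.3% of the gene's wild-type reads and 44.9% of its knockout reads. Peak 10 beside it had a log2 ratio of 0.35 and p = 0.212 in the authors' deposited table.

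No single peak of Trp53inp1 passed the test between the genotypes. The p-values are those of the authors' deposited table, and were adjusted here for all 14634 peaks (Benjamini-Hochberg, threshold 0.05). None of the 43 peaks was called, against 0.601% of all peaks (0.574% lower and 0.0273% higher in the knockout). An unadjusted p below 0.05 was found for 1 peak, against 4.2% of all peaks, 2.72% with the higher value in wild type. That was peak 11, for which the authors' deposited table gives a log2 ratio of 0.97 and p = 0.00472, with a Benjamini-Hochberg adjusted p of 0.377. The next by p were peak 4, which spans the stop codon, with 9.42 wild-type and 30.01 knockout scaled reads (p = 0.0525 in the authors' deposited table), and peak 19, with 4.92 and a knockout value listed at 0 (p = 0.113). Both had a Benjamini-Hochberg adjusted p of 1.00. How the spread between libraries enters these p-values is unknown here, and they did not follow the ratio: peak 14, with 15.5 and 0.718 reads, had p = 0.914 in the authors' deposited table.

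More peaks of the gene leaned to wild type than to the knockout, also away from the miR-155 site. Of the 43 log2 ratios in the authors' deposited table, 34 were above 0, against 56.4% of all peaks, and their median was 0.97 (quartiles 0.14 and 1.66), against 0.20. Leaving out peak 11, 33 of 42 were above 0. The lean was smaller where reads were more numerous. Of the 31 peaks with 10 or more scaled reads 24 were above 0, with a median of 0.66 in the authors' deposited table, against 53.8% of all peaks of that size. Of the 23 with 20 or more, 16 were above 0, with a median of 0.35 in the authors' deposited table, against 49.9%, and without peak 11 it was 15 of 22 and 0.31. Peaks of 1 transcript are not independent, and no test was made of this count. Knockout reads were listed at 0 for 7 peaks, against 16.6% of all peaks, and each of the 7 had fewer than 10 wild-type reads. Wild-type reads were listed at 0 for 1 peak, against 7.87% of all peaks, namely peak 31 with 3.47 knockout reads.

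By count, the lean was seen in peaks with and without sites of other families. Of the 30 peaks without a 7-nt or 8-nt site, 24 had a ratio above 0, with a median of 1.18 in the authors' deposited table. These 30 include all 7 peaks with a knockout value listed at 0. Of the 12 with a site of a family other than miR-155, 9 had a ratio above 0, with a median of 0.28. Over all peaks 56.4% were above 0, with a median of 0.20, near that of the 12. By stretch of the 3' UTR, and leaving out peak 11, summed reads gave log2 ratios of 0.55 in the first, 0.24 in the second, -0.22 in the third and 0.64 in the last. The third stretch, the only one below 0, held peak 30.

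For peaks of 20 or more scaled reads, the 3 highest ratios in the authors' deposited table belonged to peaks 42, 9 and 6. Peak 42, with the joined sites of miR-19 and miR-130, had 23.9 wild-type and 6.75 knockout reads (1.69 as log2 ratio and p = 0.310 in the authors' deposited table). Peak 6 had 19.8 and 7.95. The 3 lowest were peaks 30, 4 and 23, for which the authors' deposited table gives log2 ratios of -1.60, -1.57 and -1.38. Peak 23, with a miR-26 site, had 10.1 wild-type and 28.0 knockout reads. None of these 6 had an unadjusted p below 0.05.

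**Figure D2:**
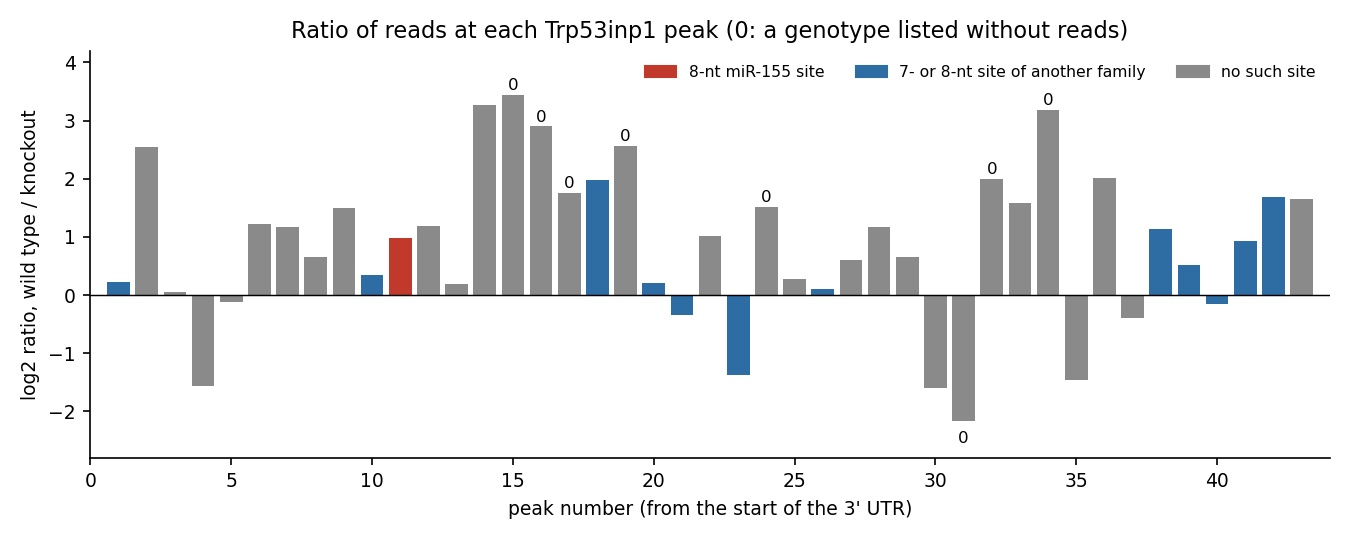
Log2 ratio of wild-type over knockout reads in the authors' deposited table (y axis) for each of the 43 peaks in order along the 3' UTR (x axis); colours give site classes as named in the key, and a 0 marks a peak listed without reads in a genotype. The ratio is above 0 at 34 peaks, and that of peak 11 (0.97) is lower than those of many small peaks.

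The miR-155 site was the sole match of its length in the gene. Its 8 nt, AGCATTAA, pair with the whole seed and end in an A opposite base 1 of miR-155 (nucleotides 736 to 743 of the 3' UTR; chromosome 4, 11170429 to 11170436, of GRCm38). The 3' UTR held no other 7-nt or 8-nt match and no other 6-nt match to bases 2 to 7. Weaker 6-nt matches to bases 3 to 8, AGCATT, stood in peaks 15 and 41 besides peak 11 itself, 6.98% of the gene's peaks against 2.59% of all peaks. Peak 15 had 9.85 wild-type scaled reads and a knockout value listed at 0, and peak 41 had 54.8 and 28.2. Neither passed the test (Benjamini-Hochberg adjusted p = 1.00 for both).

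Among the peaks with a miR-155 site, that of Trp53inp1 had the most reads in either genotype, though not the largest share kept in the knockout. It ranked 1st of the 265 peaks with a 7-nt or 8-nt miR-155 site by wild-type reads and again by knockout reads. The next by knockout reads was peak 13 of Cd274, the gene of the checkpoint ligand PD-L1, with 270 wild-type and 116 knockout reads. Of 35 peaks with an 8-nt site and at least 20 scaled reads, 21 (60.0%) were called, and peak 11 of Trp53inp1 was not. The authors' deposited table gives the other 34 a median log2 ratio of 4.76 (range 0.18 to 7.38), and 22 of them were listed at 0 in the knockout. These 22 met the minimum of 20 reads by wild-type reads alone. Their ratios, and so the median, follow from those reads and the pseudocount. The share called was taken over peaks chosen by the same minimum, so it is a description only. The log2 ratio of peak 11, 0.97, was the 4th lowest of the 35, above only those of Zfp652, Mfsd2a and Wee1. These are ranks of pooled values, and whether peak 11 differs from other sites was not tested.

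Most of the other 8-nt sites with many reads were called: 7 of the 9 with at least 100 scaled reads. This minimum is on the sum of both genotypes. Of those called, Cebpb, Fosl2, Jarid2, Ash1l, Mobkl3 and Map3k14 met it by wild-type reads alone, as did Il7r, which was not called. The share called is thus a description of peaks chosen by reads. Cebpb, a transcription factor gene, had 167 and 56.9 scaled reads at its 8-nt site (Benjamini-Hochberg adjusted p = 0.0111 from the authors' deposited p). The 2 that were not called were Il7r and Wee1. Il7r, the receptor gene for the survival cytokine IL-7, had 170 and 44.4 (adjusted p = 0.430 by the same method). Wee1, a kinase gene that holds back entry into mitosis, had 80.6 and 42.1 (adjusted p = 1.00). The knockout kept 50.9% of the wild-type reads at peak 11, where Fosl2, an AP-1 gene, went from 166 to a value listed at 0 (Benjamini-Hochberg adjusted p = 1.35e-19 from the authors' deposited p).

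**Figure D3:**
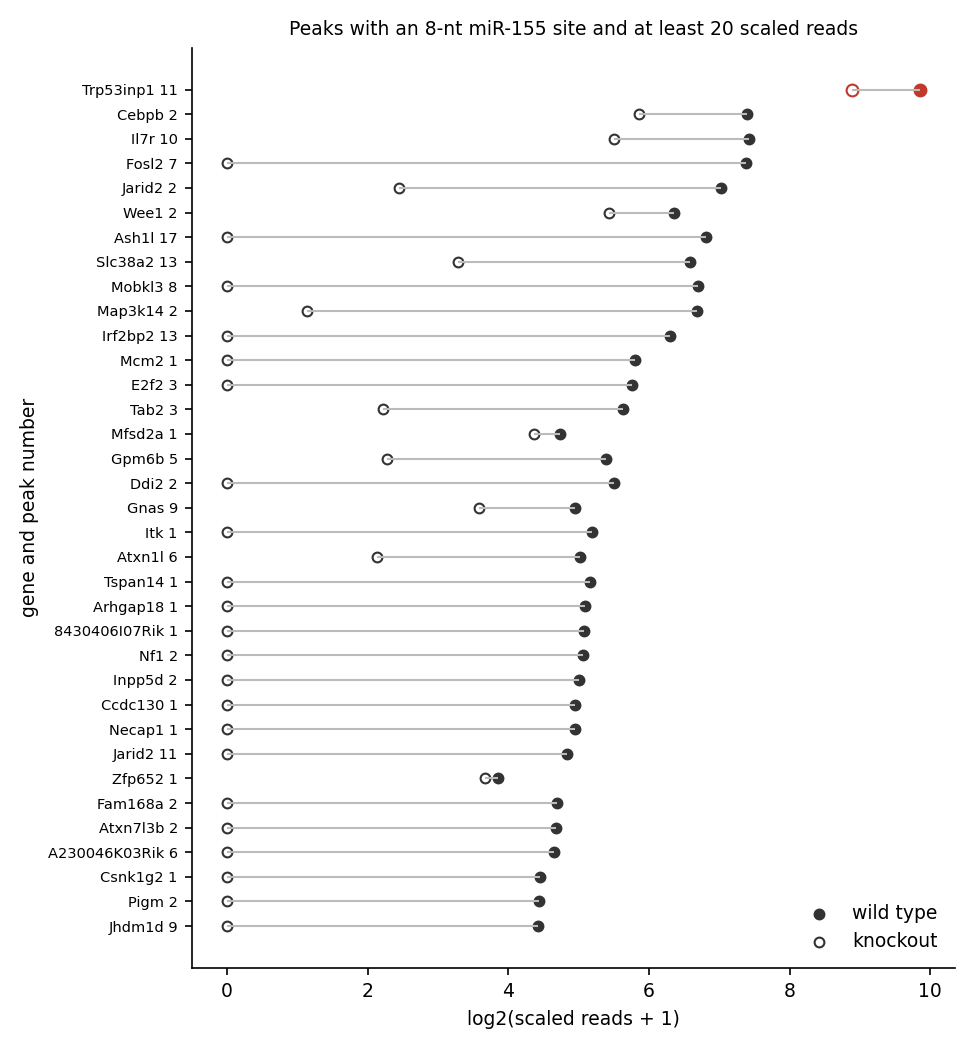
Log2(scaled reads + 1) (x axis) in wild type (filled) and knockout (open) for the 35 peaks with an 8-nt miR-155 site and at least 20 scaled reads, ordered by reads (y axis, gene and peak number). Trp53inp1 peak 11 (red) lies at 925 and 471 scaled reads, right of every other peak, and 22 others have a knockout value of 0.

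Set against peaks of its own size, peak 11 leaned to wild type. Among the 100 peaks with the most reads, 27 were above 0 by their log2 ratio in the authors' deposited table, and the median was -0.20. The ratio of peak 11 was the 3rd highest of these 100. The peaks above it, named after their values were seen, were peak 5 of Lpin1, a lipid synthesis gene, with 656 and 43.7 scaled reads and a 7-nt miR-155 site, and peak 2 of Dram2, an autophagy gene, with 850 and 317 and no such site. Lpin1 was called (Benjamini-Hochberg adjusted p = 8.36e-17 from the authors' deposited p) and was the only call among the 100, while Dram2 had an adjusted p of 1.00.

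**Figure D4:**
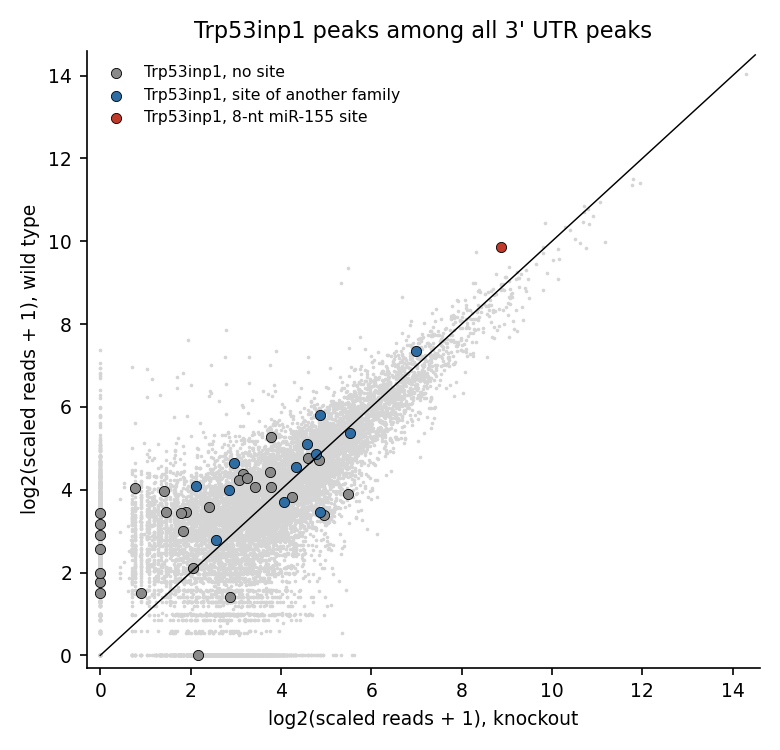
Deposited log2(scaled reads + 1) in the knockout (x axis) and in wild type (y axis) for all 14634 peaks (grey) and the 43 of Trp53inp1 (coloured by site class); the line marks equal values. Peak 11 (red) lies above the line at 925 and 471 scaled reads, and the other Trp53inp1 peaks lie mostly among the smaller peaks, 33 of 42 of them above the line.

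Sites of the families searched, miR-155 included, stood in a minority of the peaks. For 24 families of T cells, a 7-nt or 8-nt site was present in 13 of the 43 peaks (30.2%), against 41.5% of all peaks, and these 13 held 78.2% of the reads of the gene, against 51.3% over the table. Of all reads of the gene, peak 11 held 50.7% and the 12 peaks with a site of another family held 27.5%. Peak 11 thus made up most of the 78.2%. An 8-nt site stood in 5 peaks (miR-155, miR-29, miR-101, miR-182 and miR-221). Peak 10 was the only one with sites of 3 families, and peaks 39, 40 and 42 had sites of 2.

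By family, miR-26 had the most sites under peaks. Its 3 sites in the 3' UTR all lay under a peak, 6.98% of the gene's peaks against 2.04% of all peaks. These were peak 10, peak 23, and peak 38 with 14.8 wild-type and 6.19 knockout reads, so the 3 did not share a direction. The other 15 families with a site had 1 peak each, among them miR-125 (2.33% against 0.472% of all peaks) and miR-16, at peak 1 in the coding sequence of the longer isoform (5.86 and 4.90 scaled reads). Peak 20, with the 8-nt miR-29 site, had 22.2 and 19.2 scaled reads, and peak 21, with a miR-23 site, had 12.1 and 15.7. Peak 18, with a miR-27 site, had 16.1 and 3.36. The remaining 8 families, let-7, miR-18, miR-92, miR-142-3p, miR-21, miR-181, miR-30 and miR-146, had no 7-nt or 8-nt site under a peak. With 6-nt matches counted, let-7 and miR-142-3p had 1 peak each and miR-181 had 2. The match of miR-142-3p, to bases 3 to 8, stood in peak 11 beside the miR-155 site. Such matches of miR-142-3p or longer ones stood in 8.20% of all peaks.

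Most sites of these families in the 3' UTR lay inside a deposited peak sequence. Of 27 sites of 7 or 8 nt, 18 did so and 9 did not. The peaks alone covered 38.5% of the 3' UTR, and the deposited sequences extend past each peak. Some sites would thus lie inside them by position alone, and whether 18 is more than that was not tested. The 18 include the overlapping sites of peaks 40 and 42, and those of peak 42 run past the end of the peak. All 3 miR-30 sites were outside, the closest of them 4 nt before peak 30, and so were 2 of the 3 miR-221 sites. A match describes the letters of a peak and does not show which microRNA was bound there.

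Other genes with many peaks are set beside Trp53inp1 here. The next by number of peaks were Tnpo1 (39), a nuclear import receptor, Zfp871 (37), a zinc finger gene, Taok1 (35), a kinase, and Irf4 and Scd2 (34 each), a transcription factor of effector T cells and a fatty acid desaturase. Their most-read peak held 16.7% in Tnpo1, 54.3% in Zfp871, 22.1% in Taok1, 19.9% in Irf4 and 45.0% in Scd2, beside the 50.7% of Trp53inp1, so a dominant peak was also seen in Zfp871 and Scd2. Log2 ratios of their summed reads were 0.03, -0.22, 0.01, -0.59 and -0.57 in the same order.

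Of the 56 genes with at least 20 peaks, summed reads were higher in wild type in 26 (46.4%), with a median log2 ratio of -0.04. Trp53inp1 ranked 6th of the 56 by this ratio, and 7th when each gene was taken without its most-read peak. The genes nearest to it in log2 ratio of summed reads, compared over 2 pooled values only, were Smc4, a condensin subunit, with 309 and 186 scaled reads (0.73), Arl5b, a small GTPase, with 294 and 174 (0.76), and Zdhhc21, a protein palmitoyltransferase, with 460 and 298 (0.63). Of these, Arl5b and Zdhhc21 had 1 called peak each, and 7 of the 56 genes (12.5%) had any.

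**Figure D5:**
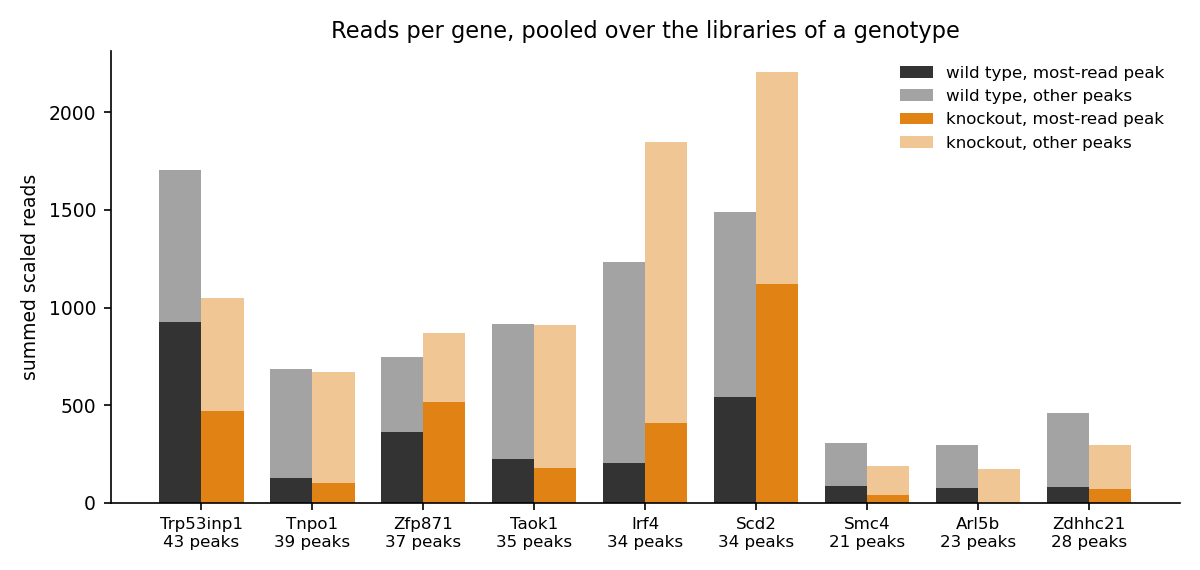
Summed scaled reads (y axis) of Trp53inp1, the 5 genes next by number of peaks and the 3 genes nearest in ratio (x axis, with number of peaks) in wild type (grey) and knockout (orange), split into the most-read peak (dark) and the rest (light). Trp53inp1 falls from 1703 to 1048, with 925 and 471 in its most-read peak, and Irf4 and Scd2 have more reads in the knockout.

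Other genes of the p53 response and of autophagy had no called peak. Of 25 p53 targets and partners 17 had peaks, 89 in all, and of 26 autophagy genes 16 had 30. No gene of either list was called in either direction, against 1.99% of all genes. At that share, lists of 17 and 16 genes with peaks could well hold none. At an unadjusted p below 0.05 there were 6 of 89 peaks in the p53 list and 1 of 30 in the autophagy list, near the 4.2% of all peaks. The median log2 ratio in the authors' deposited table was -0.16 over the peaks of the p53 list and 0.08 over those of the autophagy list, against 0.20 over all peaks.

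Within the p53 list 3 of the 17 genes with peaks, Mdm2, Mdm4 and Bbc3, had more summed reads in wild type. The same share over all genes is not given here, and the least-read gene of the list had 3.61 reads. Mdm2, the ubiquitin ligase of p53, had 17.4 wild-type and 6.82 knockout scaled reads, and its partner gene Mdm4 had 42.01 and 14.8. The most-read genes of the list were Btg2, an antiproliferative gene, with 5739 and 7094, Ddit4, an inhibitor of mTOR signalling, with 645 and 724, and Pmaip1, the cell death gene also called Noxa, with 291 and 319. Pmaip1 held the only peak of this list with a miR-155 site, 1 of 89, against 1.81% of all peaks. Hipk2, a kinase that acts on p53 together with the Trp53inp1 protein, had 39.8 and 205. Prkcd, a kinase of the same response, had 69.3 and 170. The smallest p of Hipk2 was 0.00220 in the authors' deposited table (Benjamini-Hochberg adjusted p = 0.217). Trp53inp2, the closest relative of Trp53inp1 and like it an autophagy protein, had a single peak with 8.27 and 30.1 reads (adjusted p = 1.00).

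In the autophagy list 7 of 16 genes had more summed reads in wild type, again without the share over all genes. The least-read gene of this list had 2.77 reads. Its most-read genes were Sqstm1, the cargo receptor p62, with 60.0 and 64.6 scaled reads, Nbr1, a receptor of the same kind, with 55.7 and 57.7, and Map1lc3b, which encodes an LC3 protein, with 41.6 and 31.97. None of these 3 had an unadjusted p below 0.05. The 1 peak of the list with such a p was in Atg3, a conjugating enzyme for LC3, with 15.5 wild-type reads, a knockout value listed at 0 and a miR-155 site (Benjamini-Hochberg adjusted p = 0.576). Gabarap had 0.991 and 14.1 reads in a single peak (adjusted p = 1.00 by the Benjamini-Hochberg method).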

How the data were processed

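AGO2 HITS-CLIP was made from 24 libraries, 12 per genotype. Bowtie 0.12.7 and the mm9 build were used, per the submitters' processing notes. The peak caller, read scaling and statistical test are not given in the sources. Per the file headers, the authors' log2 values are reads for either genotype and the ratio of wild type to knockout, and the authors' p-value is for differential binding. The ratio and the difference of both read columns were equal to within 6e-05. Scaled reads were computed as 2 to the power of the value, less a pseudocount of 1, which is inferred and shrinks the ratio of low peaks. No test across libraries was possible, since the columns are pooled; the deposited p-values were adjusted by Benjamini-Hochberg over 14634 peaks.

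Sites were searched on the sense strand in the deposited sequences, which extend 6 nt past each of the 43 peaks: a match to bases 2 to 8 with an A opposite base 1 (8 nt), to bases 2 to 8, or to bases 2 to 7 with that A (7 nt each). Seeds came from RefSeq for 24 of 25 listed families, named here by 1 member each; miR-150 was not analysed here. Positions are exact matches to GENCODE M21 (GRCm38), not mm9.

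The gene, gene lists and rules for names were chosen with earlier results of these data known. Named were the 10 most-read peaks, the peak with the miR-155 site, the 3 smallest p, the 3 highest and 3 lowest ratios at 20 or more scaled reads, the 4 genes next by peaks (5 with a tie), the 3 nearest in ratio among genes with at least 20 peaks, and list members by reads or call; any further name was picked with its values known. Alternatives were other thresholds, read minimums, pseudocounts, centring and site lengths. Adjustment and site search were tested on simulated data. Python 3.11.15, NumPy 2.4.6, pandas 2.3.3, SciPy 1.17.1 and Matplotlib 3.10.9 were used.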

Additional observations from a re-analysis of the deposited data

How the results depend on the processing

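The values are pooled per genotype, so leaving out a replicate could not be run, and depth limits every peak with few reads to an unknown degree. No paired analysis was possible because the table has no column per library. The count of called Trp53inp1 peaks was 0 at adjusted p thresholds of 0.01 and 0.1, with Bonferroni, and over peaks with at least 10 scaled reads; it was 1 at an unadjusted p below 0.05. The log2 ratio of summed reads, 0.70, was 0.43 without peak 11, 0.71 centred on all peaks, 0.68 over peaks with at least 10 scaled reads, and, chosen after seeing the data, 0.73 without peaks 1 to 4 and 0.45 without peaks 10 and 11. The median log2 ratio over peaks, 0.97, was 0.66 and 0.35 over peaks with at least 10 and 20 scaled reads, 0.71 without the pseudocount over peaks with reads in both genotypes, 0.78 centred, and, chosen after seeing the data, 1.02 without peaks 1 to 4 and 0.65 with the pseudocount over peaks with reads in both genotypes. The log2 ratio of peak 11, 0.97, was 0.97 without a pseudocount and 0.78 centred. For peak 11 and for the median over peaks, the centre was the median of all peaks. For the summed reads it was the summed ratio of all peaks. Its Benjamini-Hochberg adjusted p of 0.377 was 0.258 when, chosen after seeing the data, only peaks with at least 10 scaled reads were adjusted. Counting 6-nt matches, miR-155 site peaks held 54.1% of the reads in place of 50.7%. Peaks with a site of any family numbered 13, and 5 with 8-nt matches only (14.1% of all peaks of the table), 21 with 6-nt matches too (70.1%) and 12 without the flanks. No gene of the p53 and autophagy lists was called at 0.01 or 0.1. The sign of each ratio was the same in all of these.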

Other observations

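ATTTA, the pentamer of AU-rich elements, to which RNA-binding proteins that control messenger stability are known to bind, stood in 2 of the 43 peak sequences (4.65%), against 11.6% of all peaks, while the 3' UTR of the gene held it 8 times. The peaks had a median GC content of 36.7%.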
